A study of Mus musculus with 24 samples.

Results

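Interferon-stimulated genes and the interferon-inducible GTPases are the genes that cells switch on when interferon reaches them. The set described here holds 39 genes, chosen by gene symbol from the 41128 rows of a gene-level count table, with the condition that a row's total over all libraries was above 0. It splits into 10 GTPases of the guanylate-binding (Gbp) and immunity-related (Iigp1, Igtp, Irgm) families, 10 antiviral genes of the Ifit, Oas and Mx families, and 19 other genes. All 39 had counts and all 39 passed the filter on low counts, which left 16316 genes for testing.

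The libraries were made from mouse aorta by rRNA depletion of total RNA, in a study of how Ppp3cb, the beta catalytic subunit of the phosphatase calcineurin, bears on the vascular response to angiotensin II (AngII). The 24 libraries form 8 groups of 3, by genotype (wild type, WT, or Ppp3cb knockout, KO), treatment and sex. All mice were 5 months old and belonged to the line B6,129S6-Ppp3cbtm1Jmk/J. Osmotic minipumps delivered AngII over 4 weeks, at 500 ng per kg of body weight each minute, and the other groups are labelled control. The sources used here do not say whether the WT mice were littermates of the KO mice, whether controls carried a pump, or whether each library came from a separate mouse, so the p-values measure only the spread between these libraries. The aorta was sampled whole, and in such bulk RNA a change in the number of cells of a type and a change in RNA per cell cannot be told apart.

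Interferons act through cell surface receptors and Janus kinases. Type I interferons signal mainly through a complex that includes Stat2 and Irf9 and binds interferon-stimulated response elements, while the response to interferon gamma runs through gamma-activated sites, and the factor Irf1 carries it further. The Ifit, Oas and Mx genes are textbook type I targets that act on viral RNA and nucleocapsids, whereas the Gbp and Irg genes are textbook interferon gamma targets whose products attack the vacuoles of intracellular pathogens.

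To show the regulatory sequence the GTPases and the antiviral genes share, stretches of 60 bases upstream of the RefSeq transcription start (GRCm38.p6) are printed for 4 GTPase genes and 3 antiviral genes, each read 5′ to 3′ on the gene's own strand. Capitals mark matches to the response element core, GAAA and GAAA with any 2 bases between them, on either strand, so that a match on the other strand reads TTTC and TTTC with 2 bases between. The stretches lie at chr3:142620579-142620638 (plus strand) for Gbp2, chr3:142530258-142530317 (plus) for Gbp7, chr11:58199496-58199555 (plus) for Igtp, chr11:48871421-48871480 (minus) for Irgm1, chr19:34640779-34640838 (plus) for Ifit1, chr19:34583382-34583441 (plus) for Ifit3 and chr5:120907526-120907585 (minus) for Oas1a.
Gbp2: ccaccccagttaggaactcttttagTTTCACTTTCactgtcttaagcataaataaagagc
Gbp7: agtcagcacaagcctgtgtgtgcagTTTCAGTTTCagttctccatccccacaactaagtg
Igtp: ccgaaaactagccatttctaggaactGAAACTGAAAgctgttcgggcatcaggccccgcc
Irgm1: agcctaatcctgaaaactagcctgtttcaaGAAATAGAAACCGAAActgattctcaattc
Ifit1: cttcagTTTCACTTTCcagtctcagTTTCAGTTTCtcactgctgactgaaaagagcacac
Ifit3: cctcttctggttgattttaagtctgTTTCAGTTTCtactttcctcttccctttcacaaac
Oas1a: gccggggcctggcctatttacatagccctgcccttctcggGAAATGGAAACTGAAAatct
Counted from the transcription start, the match nearest to it begins at base -59 in Gbp2, -34 in Igtp and -85 in Ifit1.

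The RefSeq promoter table, which spans 250 bases before to 50 after each start, matched 27 of the members with 31 promoters, since a gene can have more than 1 start. The response element core, searched on both strands, stood in 17 of the 31 member promoters (54.8%) and in 3.44% of all 32851 promoters of the same length. Of the GTPase promoters 6 of 7 (85.7%) held it, as did 4 of 8 antiviral promoters (50%). The GTPase promoters are those of Gbp2, Gbp3, Gbp7, Igtp, Irgm1 and Irgm2. Iigp1, Gbp4 and the rows named Gbp5 and Gbp6 are not among them. The GTPase shares therefore leave out Iigp1, Gbp4 and Gbp6, the GTPases that passed the adjusted threshold in control mice (below). The gamma-activated core TTCNNNGAA, which reads the same on both strands, stood in 3 of 7 GTPase promoters (42.9%), 2 of 8 antiviral promoters (25%) and 8.3% of all promoters. The core motifs may overlap each other. A match describes letters in this window and is no evidence of binding.

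Library totals ran from 1523328 to 6352365 counts, and the 39 genes together received 1075 to 5550 counts per library. The KO control females were the shallowest group, at 1523328 to 2401264 counts. Their summed smooth muscle markers, which include the defining genes Myh11 and Acta2, came to 6275 to 10298 CPM (counts scaled to a library total of 1000000), against 13798 to 15250 CPM in WT control females. Olfactory and vomeronasal receptor genes, named by their symbols Olfr and Vmn, took 1002 to 1992 of each 1000000 protein-coding counts in the KO control females and 111 to 1073 in the other libraries. The share of counts on rRNA, snRNA and misc_RNA genes was 2.51% to 13.3% in the KO control females and 9.31% to 40.3% in the other libraries. The part of these differences in the values of the KO control females was not tested. Ppp3cb itself averaged 41.9 ± 10.8 CPM (SD, n = 12) in WT libraries and 21.3 ± 6.11 CPM (SD, n = 12) in KO libraries, so transcripts of the gene were still counted in KO aorta. All levels below are CPM scaled by edgeR's TMM factors, and all differences are log2 changes with their standard error (SE) from edgeR's quasi-likelihood test, with Benjamini-Hochberg adjustment over the 16316 genes.

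In control mice the GTPases were higher in KO than in WT aorta. All 10 had a log2 change above 0, with a median of 1.76 and a range of 0.90 to 2.81, and 3 of them passed an adjusted p of 0.05: Iigp1, Gbp4 and Gbp6. Across all genes tested 0.202% passed with a higher value in KO, the median was -0.01 and 49.5% lay above 0. Each of the 10 had an unadjusted p under 0.05, a level reached with a higher value in KO by 5.50% of all genes. Of the antiviral genes 9 of 10 were above 0, with a median of 1.41, none passed the adjusted threshold by edgeR and 4 had an unadjusted p under 0.05. Of the other 19 genes 15 were above 0, with a median of 0.80, none passed and 6 had an unadjusted p under 0.05. The difference between the groups of genes was not tested. With DESeq2 11 of the 39 genes passed, 8 of them GTPases beside Ifit1, Ifit3 and Parp14, and with limma-voom none did. The shares of all genes that passed by these methods are not given here.

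**Figure D1:**
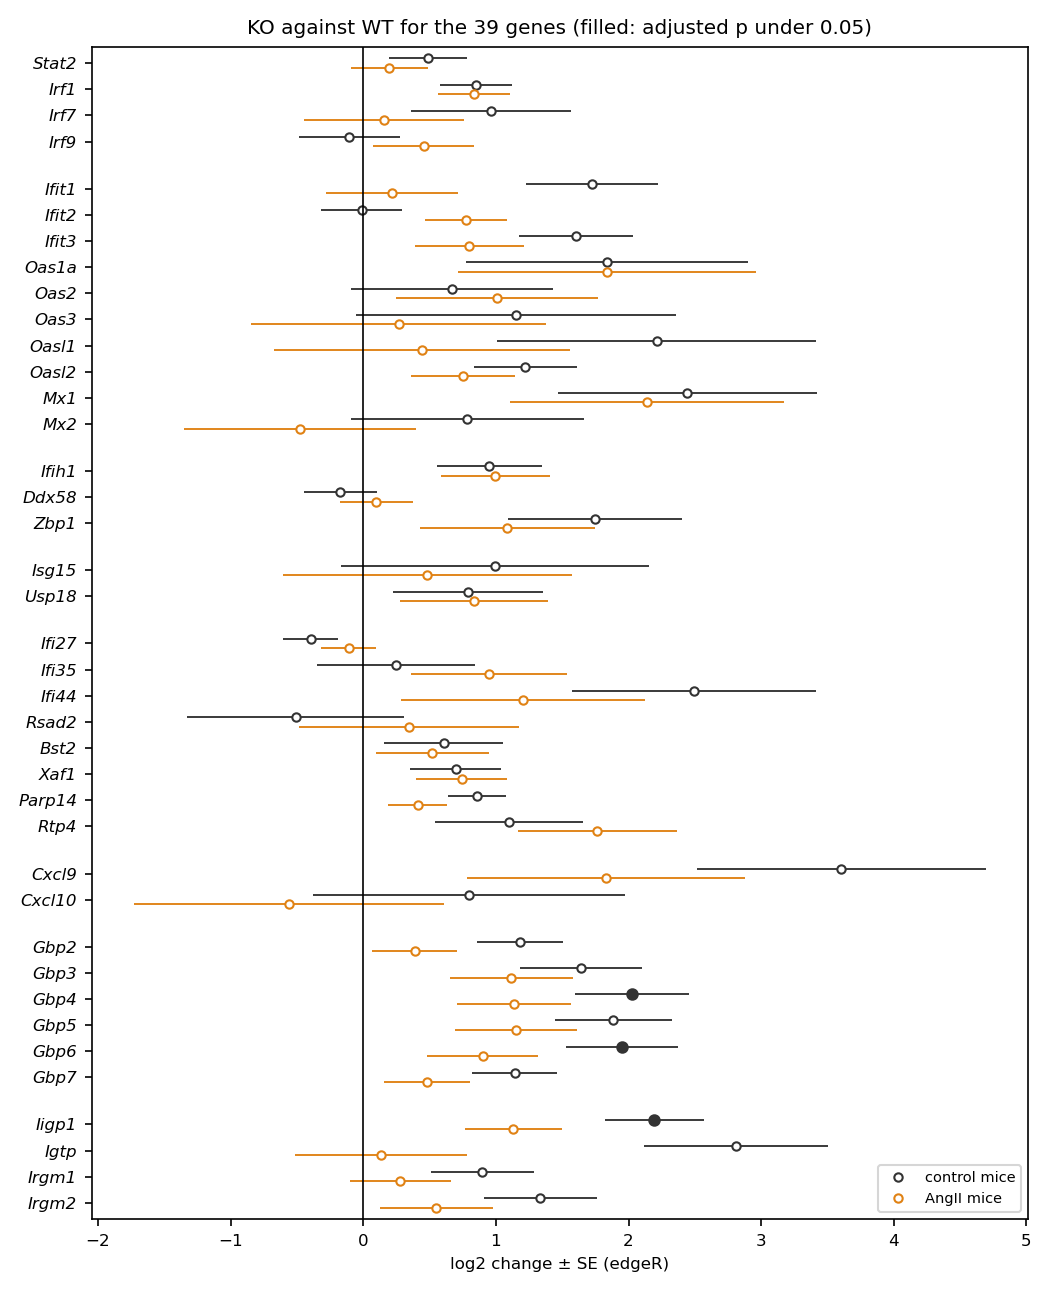
KO against WT for each of the 39 genes, as log2 change with its standard error, in control mice (black) and AngII mice (orange), ordered by role. Filled points (Iigp1, Gbp4 and Gbp6, in control mice) passed an adjusted p of 0.05. All 10 GTPases, at the bottom, lie right of 0 in both sets of mice.

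Iigp1, an immunity-related GTPase that coats pathogen vacuoles, lies at chr18:60376027-60392634 on the plus strand (GENCODE M21, mm10). Its level in WT control libraries ran from 7.10 to 24.9 CPM with a median of 15.9, and in KO control libraries from 20.1 to 132 CPM with a median of 69.2. In control males the groups were apart, at 7.10, 13.9 and 8.61 CPM in WT against 41.0, 102 and 21.6 CPM in KO. In control females KO replicates 1 and 3 were high, at 97.4 and 132 CPM, while replicate 2, at 20.1 CPM, lay within the WT range of 17.9 to 24.9 CPM. The log2 change in control mice was 2.19 ± 0.37 (SE, edgeR adjusted p = 0.0048). It passed in each of the 24 fits that left out 1 library.

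Gbp4 and the row named Gbp6 belong to the guanylate-binding family, large GTPases that assemble on bacteria and parasite vacuoles. Gbp4 (chr5:105115767-105139586, minus strand) ran from 9.76 to 38.9 CPM in WT control libraries, with a median of 21.7, and from 18.7 to 413 CPM in KO control libraries, with a median of 69.0. KO control female 1 alone held the value of 413 CPM, the next being 135 CPM in KO control female 3. The groups overlapped, since KO control male 3, at 18.7 CPM, lay below 5 of the 6 WT control libraries. The log2 change was 2.03 ± 0.43 (SE, edgeR adjusted p = 0.0297), and it passed in 18 of the 24 fits that left out 1 library. Exons of Gbp4 overlap those of Gbp8 and Gbp9 on the same strand in the annotation, so counts of these genes may be shared.

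The Gbp6 row ran from 16.7 to 51.7 CPM in WT control libraries, median 29.0, and from 19.7 to 282 CPM in KO control libraries, median 119. High values came from KO control females 1 and 3 (187 and 282 CPM) and KO control male 2 (180 CPM), and the other 3 KO control libraries overlapped the WT range or lay just above it. The log2 change was 1.95 ± 0.42 (SE, edgeR adjusted p = 0.0342), and it passed in 17 of 24 fits that left out 1 library. The identifier of this row belongs in GENCODE M21 to a locus that spans both Gbp6 and Gbp10, so the row may count either. Likewise the row named Gbp5 carries the identifier that GENCODE M21 gives to Gbp2b, and which of these genes it counts is uncertain.

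The remaining guanylate-binding genes also had positive log2 changes, and none passed in control mice by edgeR. The Gbp5 row ran from 2.66 to 24.7 CPM in WT control and from 8.51 to 111 CPM in KO control libraries, with medians of 11.4 and 40.8 CPM. Its log2 change was 1.89 ± 0.44 (SE, edgeR adjusted p = 0.0566). Gbp3 ran from 2.96 to 23.6 CPM in WT control and from 7.29 to 57.6 CPM in KO control libraries, with medians of 8.63 and 30.4 CPM and a log2 change of 1.64 ± 0.46. For both rows the KO and WT control libraries overlapped. Gbp2, the highest of the guanylate-binding genes whose length could be taken, at 11.4 CPM per kb over all libraries, ran from 16.1 to 28.3 CPM in WT control and from 20.1 to 83.7 CPM in KO control libraries. Its log2 change was 1.18 ± 0.32 (SE, edgeR adjusted p = 0.1275). Gbp7 had 1.14 on the same scale.

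Among the other immunity-related GTPases, the regulators Igtp, Irgm1 and Irgm2, which guard host membranes against the effector members, had log2 changes of 2.81, 0.90 and 1.33, none of which passed. Igtp, singled out after its values were seen, was listed at 0 in 1 WT control library and reached 4.95 CPM in the highest, while KO control libraries ran from 3.65 to 37.7 CPM. Only KO control male 3, at 3.65 CPM, fell inside the WT control range. The SE of its log2 change was 0.69 (edgeR adjusted p = 0.0747). Igtp and Irgm2 share exon bases in the annotation.

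The summed level of the 10 GTPases shows how the libraries differ. WT control libraries summed to 84.9 to 222 CPM. KO control females summed to 1108, 271 and 935 CPM, and KO control males to 302, 669 and 143 CPM. KO control females 1 and 3 and male 2 were the highest, and KO control male 3 lay inside the WT range. In KO control females 1 and 3 and male 2, 9, 10 and 10 of the 10 GTPases were above every WT control library, against 0 of 10 in KO control male 3. The share of all genes above every WT control library was not computed for single libraries, so these counts have no background beside them. The antiviral genes summed to 36.4 to 65.3 CPM in WT control libraries, to 106, 68.7 and 180 CPM in KO control females and to 58.6, 136 and 51.0 CPM in KO control males. Among control libraries the same 3 were highest for both families. The GTPase sum was 2.33 to 4.20 times the antiviral sum in WT control libraries and 2.81 to 10.4 times in KO control libraries, and these ranges overlap.

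**Figure D2:**
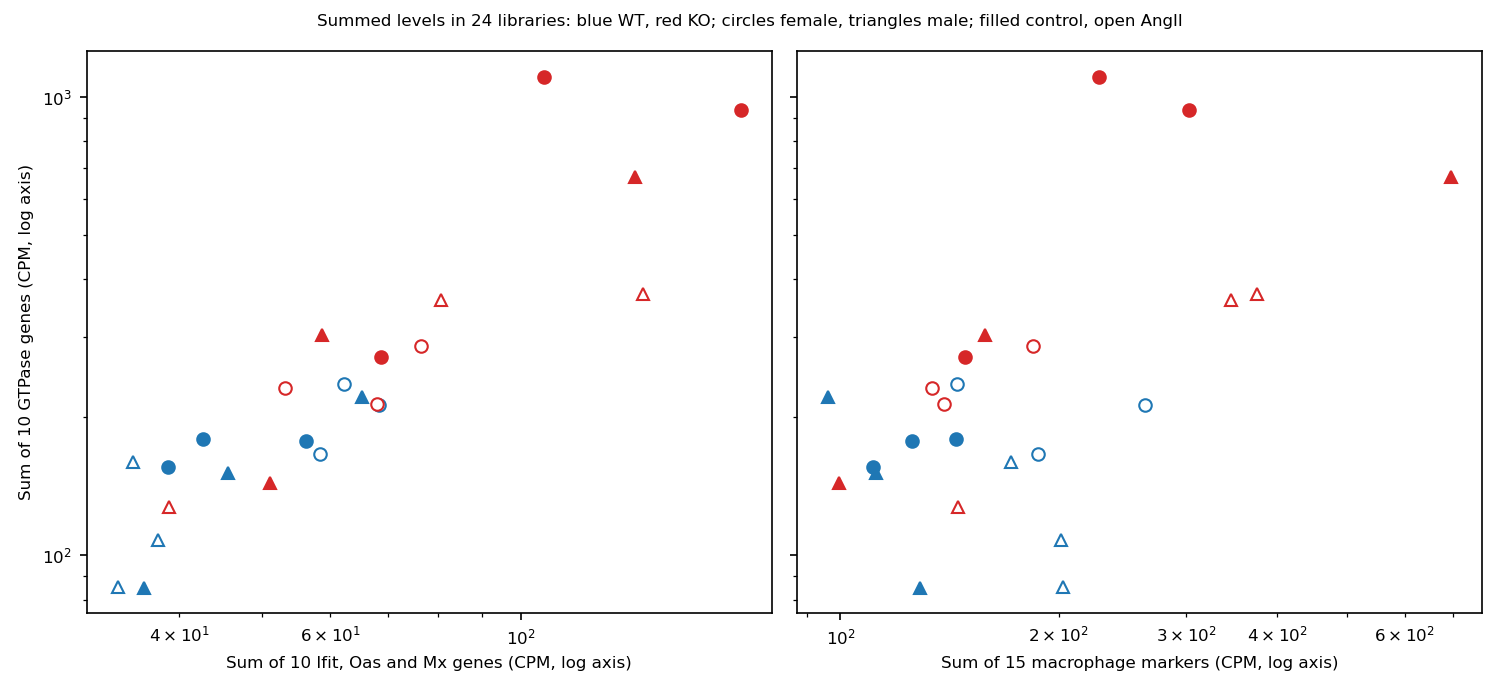
Summed level of the 10 GTPase genes in each of the 24 libraries against the summed level of the 10 antiviral genes (left) and of 15 macrophage markers (right), all in CPM on log axes. Blue is WT and red KO, circles are female and triangles male, filled points are control and open points AngII. The 3 highest GTPase sums, 669 to 1108 CPM, are KO control libraries.

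Macrophage markers were highest in the same 3 of the control libraries. All 15 macrophage markers were above 0 in KO control against WT control, with a median log2 change of 1.48, none passed the adjusted threshold by edgeR, and 12 had an unadjusted p under 0.05. Their summed level ran from 96.2 to 144 CPM in WT control and from 99.4 to 695 CPM in KO control libraries. KO control male 2 held the 695 CPM, while KO control females 1 and 3 had 227 and 303 CPM. In WT AngII libraries the macrophage sum, 145 to 263 CPM, lay above every WT control library, and the GTPase sum there was 85.4 to 237 CPM. Of 12 T and NK cell markers 3 (Cd3e, Cd3d and Cd3g) were listed at 0 in all libraries, as was every gene of chromosome 9, where they lie. Only 2 of the 12, Cd4 and Prf1, passed the filter on low counts. Both were above 0 in KO control, with a median log2 change of 3.01, and both had an unadjusted p under 0.05 by edgeR. The summed level of the list was 1.65 to 6.69 CPM in WT control and 1.22 to 23.6 CPM in KO control libraries. Of 7 B lymphocyte markers 5 were tested and 4 of these were above 0 in KO control, with a median log2 change of 0.86. Cd79a went the other way, at -3.58. An unadjusted p under 0.05 by edgeR was reached by 1 marker with a higher and 1 with a lower value in KO. The sum of the B lymphocyte markers ran from 11.7 to 154 CPM in WT control and from 10.9 to 232 CPM in KO control libraries. All 3 dendritic cell markers tested, of 6 listed, were above 0, with a median of 1.11 and sums of 2.66 to 16.3 CPM in WT control and 10.1 to 48.4 CPM in KO control libraries. No T and NK cell, B lymphocyte or dendritic cell marker passed by edgeR. The part of these cells in the GTPase levels was not tested.

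Without KO control females 1 and 3 the GTPases kept log2 changes above 0 in 10 of 10 genes, with a median of 1.03 in place of 1.76, and none of the 39 genes passed. The antiviral median was then 0.85. This leaves 1 KO control female, which is assumed to vary like the libraries of the other groups. Without KO control male 2 the medians were 1.34 and 1.00, and Iigp1 was the only member that passed.

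**Figure D3:**
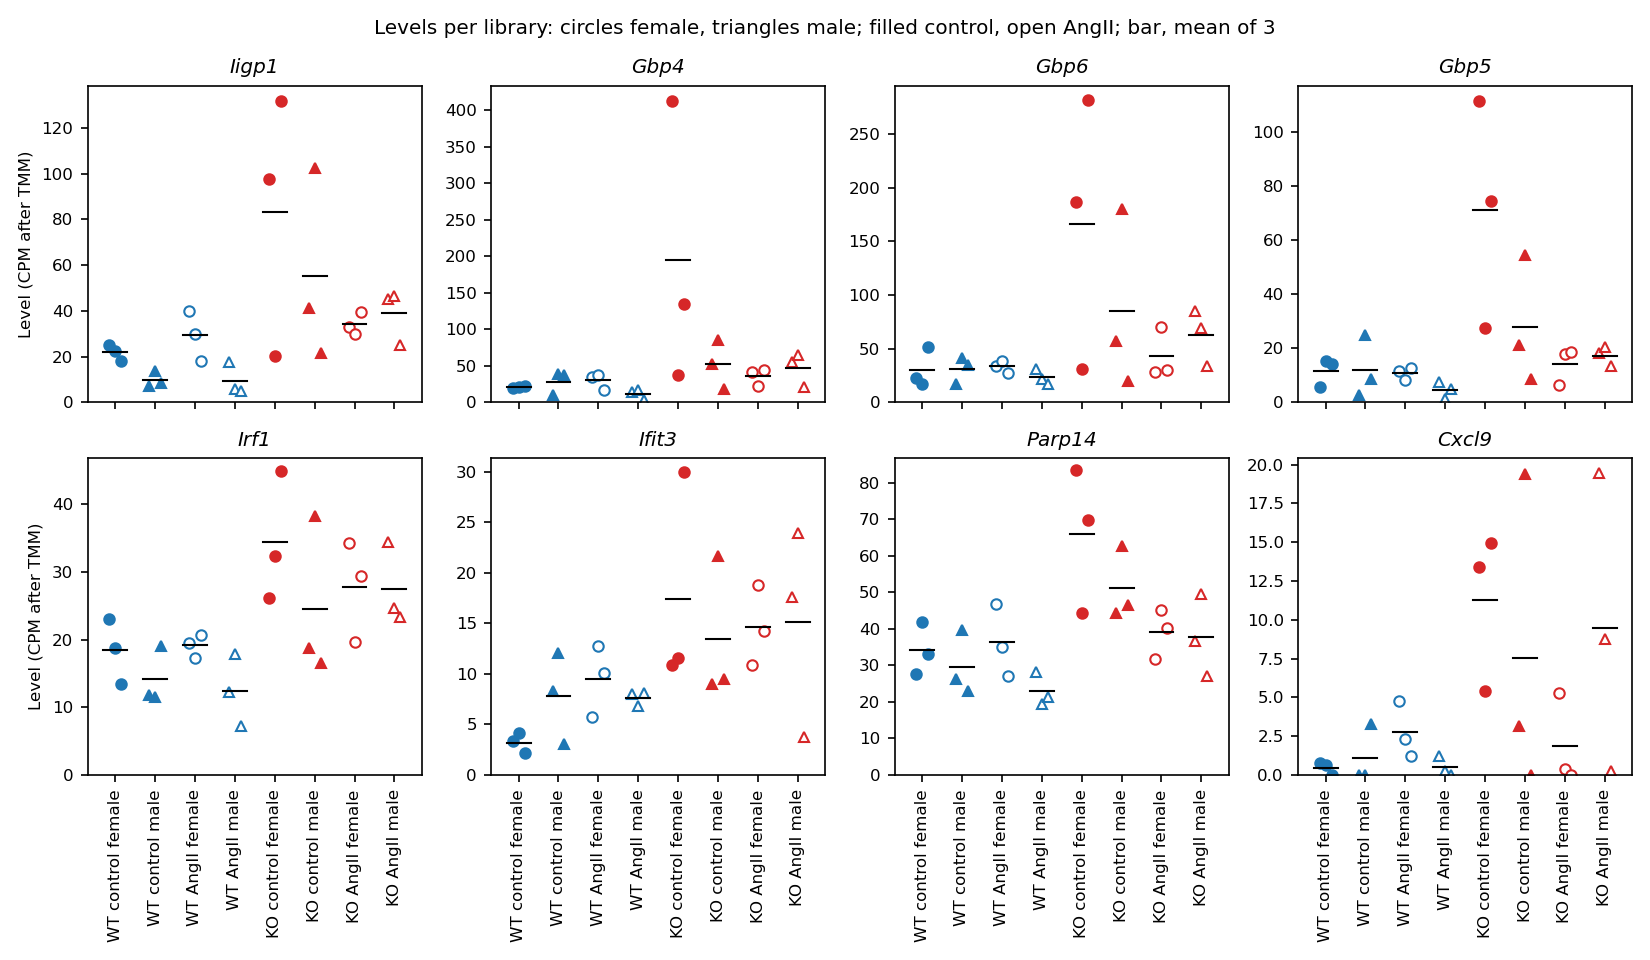
Level of 8 members in each library, in CPM, with the mean of each group of 3 as a bar. Blue is WT and red KO, circles are female and triangles male, filled points are control and open points AngII. For Gbp4 the highest point, 413 CPM, is KO control female 1.

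Ifit3, whose product works with Ifit1 in binding viral RNA, was the antiviral gene with the smallest p in control mice and the highest level for its length, 6.35 CPM per kb. It ran from 2.13 to 12.0 CPM in WT control and from 9.04 to 29.9 CPM in KO control libraries, with medians of 3.71 and 11.2 CPM. The WT range reached into the KO range through 1 male, at 12.0 CPM, whereas all 3 WT control females, at 2.13 to 4.13 CPM, lay below every KO control library. The log2 change was 1.60 ± 0.43 (SE, edgeR adjusted p = 0.113). Ifit1 had 1.73, Ifit2 -0.01, and Mx1, a dynamin-like GTPase that traps viral nucleocapsids, 2.44. Among the Oas genes, whose products make the oligoadenylates that activate RNase L, Oas1a had 1.84, Oas2 0.67, Oas3 1.15, and the related Oasl1 and Oasl2 2.21 and 1.22. Most of these were thinly counted, with Oas1a, Oas3 and Oasl1 averaging 1.77, 1.05 and 1.58 CPM over all libraries, and Mx2 is classed as a polymorphic pseudogene in the table.

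Of the 4 transcription factors, Irf1 had the smallest p. It ran from 11.5 to 23.1 CPM in WT control and from 16.5 to 44.9 CPM in KO control libraries, with medians of 16.0 and 29.2 CPM. The groups overlapped, since KO control males 1 and 3 stood at 18.8 and 16.5 CPM. The log2 change was 0.85 ± 0.27 (SE, edgeR adjusted p = 0.225). Stat2 had 0.49, Irf7, the amplifier of type I interferon, 0.96 and Irf9 -0.10. None passed.

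Among the nucleic acid sensors, Zbp1, which binds left-handed nucleic acid and can start necroptosis, ran from 1.18 to 3.26 CPM in WT control and from 0.972 to 21.7 CPM in KO control libraries. Its log2 change was 1.75 ± 0.66 and did not pass. The RNA sensors Ifih1 (MDA5) and Ddx58 (RIG-I) had 0.95 and -0.17. Ddx58, the highest sensor for its length, stood at 30.1 ± 6.91 CPM (SD, n = 6) in WT control and 27.2 ± 13.0 CPM (SD, n = 6) in KO control libraries. The ubiquitin-like Isg15 had 0.99, and Usp18, the protease that removes it, had 0.79 ± 0.57. Usp18 reached 23.6 CPM in KO control female 1, while KO control males, at 1.14 to 4.40 CPM, lay within the WT control range of 0.931 to 5.66 CPM.

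Parp14, an ADP-ribosyltransferase, was the only member whose KO control libraries all lay above all WT control libraries, which 0.227% of all genes tested did. It ran from 22.8 to 41.9 CPM in WT control libraries and from 44.2 to 83.4 CPM in KO control libraries, with medians of 30.3 and 54.5 CPM. The log2 change was 0.86 ± 0.22 (SE, edgeR adjusted p = 0.0926). Ifi27 had the highest level for its length of all members with a length, 54.5 CPM per kb, and ran the other way, at 86.3 ± 17.1 CPM (SD, n = 6) in WT control and 64.7 ± 19.2 CPM (SD, n = 6) in KO control libraries. Its log2 change was -0.40 ± 0.21 and did not pass. Of the rest, Ifi44 had 2.50, Rtp4 1.10, Xaf1 0.70, Bst2 (tetherin) 0.61, Ifi35 0.25 and Rsad2 (viperin) -0.51.

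The chemokine Cxcl9, which draws CXCR3-bearing lymphocytes, was listed at 0 in 3 of 6 WT control libraries and reached 3.26 CPM, while KO control libraries ran from 0 to 19.4 CPM with a median of 9.39. KO control male 3, at 0, was the exception to the higher KO levels, and KO control male 1, at 3.17 CPM, lay just inside the WT range. The fitted log2 change was 3.61 ± 1.09 (SE, edgeR adjusted p = 0.195); with libraries at 0 in both groups this fitted value is imprecise. Cxcl10 had 0.80, with levels of 0 to 3.06 CPM in WT control and 0 to 6.62 CPM in KO control libraries.

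By sex, 3 members passed in control females, Gbp4 (log2 change 3.19 ± 0.63, edgeR adjusted p = 0.0142), Gbp5 (2.56 ± 0.64, edgeR adjusted p = 0.0462) and Gbp6 (2.45 ± 0.61, edgeR adjusted p = 0.0462), beside 0.509% of all genes with a higher value in KO. In females 19 of the 39 members had every KO library above every WT library, beside 9.33% of all genes, and 6 of these were GTPases and 4 antiviral genes. In control males no member passed by edgeR, nor did any gene (0.00%), while DESeq2 called Iigp1 alone, and 9 members had an unadjusted p under 0.05 with a higher value in KO, beside 2.81% of all genes. There, 6 members were apart in the same way (Bst2, Gbp2, Iigp1, Irf7, Isg15 and Parp14), beside 6.09% of all genes. Iigp1 had a log2 change of 2.47 ± 0.54 in males (SE, edgeR adjusted p = 0.538). Median changes of the GTPases were 2.06 in females and 1.19 in males. The test of the sex difference passed for no member by edgeR (0.0552% of all genes), DESeq2 or limma-voom, with an unadjusted p under 0.05 for 3 with a larger value in females (5.01% of all genes), among them Gbp4 at 2.33 ± 0.84. No member passed in females without KO control female 1, or without WT control female 1, 2 or 3, each left out alone. Without KO control female 3 Gbp4 alone passed, and without KO control female 2, the lowest of the 3 for Iigp1, 11 members did. Calls over all genes moved too, from 133 in either direction with every library in to 1185 without KO control female 2. They fell to 14 without WT control female 2. Without KO control females 1 and 3 none passed and the log2 change of the Gbp6 row was -0.0295, a fit with 1 KO control female left, whose spread is taken from the other groups.

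Under AngII the KO libraries were above WT for 36 of the 39 members, beside 50.9% of all genes, with a median log2 change of 0.74. None passed by edgeR, DESeq2 or limma-voom, while 0.355% of all genes did by edgeR in either direction. An unadjusted p under 0.05 with a higher value in KO was reached by 11 members and by 5.11% of all genes. The GTPases had a median of 0.73, with 10 of 10 above 0, and the antiviral genes 0.76, with 9 of 10 above 0. Iigp1 ran from 5.18 to 39.8 CPM in WT AngII and from 25.1 to 46.6 CPM in KO AngII libraries, with a log2 change of 1.13 ± 0.37 (SE, edgeR adjusted p = 0.281). The groups overlapped through the WT AngII females, at 18.2 to 39.8 CPM, while WT AngII males, at 17.5, 5.75 and 5.18 CPM, lay below every KO AngII library. Irf1 ran from 7.19 to 20.7 CPM in WT AngII and from 19.6 to 34.5 CPM in KO AngII libraries, which overlap at 1 KO female, with a log2 change of 0.84 ± 0.27 (SE, edgeR adjusted p = 0.280). No member had all KO AngII libraries above all WT AngII libraries, which 0.539% of all genes had. KO AngII male 2 exceeded every WT AngII library in 32 of the 39 members and KO AngII male 3 in 4. For single libraries the share of all genes that did so was not computed. Of the B lymphocyte markers all 5 tested were above 0 in KO AngII against WT AngII, with a median log2 change of 2.31, 2 (Ighm and Igkc) had an unadjusted p under 0.05 and none passed by edgeR. Their sum ran from 10.1 to 33.8 CPM in WT AngII and from 6.12 to 364 CPM in KO AngII libraries, with KO AngII male 1 highest and male 3 lowest. All 3 dendritic cell markers tested were above 0, with a median of 1.30 and sums of 2.59 to 9.04 CPM in WT AngII and 4.15 to 27.4 CPM in KO AngII libraries. Of the macrophage markers 10 of 15 were above 0, with a median of 0.13, and none had an unadjusted p under 0.05. Their sum ran from 145 to 263 CPM in WT AngII and from 134 to 376 CPM in KO AngII libraries. Of the 2 T and NK cell markers tested 1 was above 0. The part of these cells in the members' values was not tested.

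AngII itself changed no member in WT aorta past the threshold, by edgeR, DESeq2 or limma-voom, beside 0.208% of all genes. Of the 39, 16 were above 0, beside 48.8% of all genes, and the median log2 change was -0.15. Igtp alone had an unadjusted p under 0.05 (3.47% of all genes, with a higher value under AngII), at 1.42 ± 0.69, with WT levels of 0 to 4.95 CPM in control and 1.92 to 11.8 CPM in AngII libraries. In KO aorta 31 of 39 members had a lower estimate under AngII, beside 48.6% of all genes, with a median of -0.64, and none passed by edgeR, DESeq2 or limma-voom. No gene at all passed by edgeR (0.00%). An unadjusted p under 0.05 with a lower value was reached by 7 members (Ifit1, Parp14, Gbp4, Gbp5, Gbp6, Gbp7 and Iigp1) and by 3.50% of all genes. All 10 GTPases were lower, with a median of -0.90, as were 8 of 10 antiviral genes, with a median of -0.65. Gbp4 stood at 124 ± 147 CPM (SD, n = 6) in KO control and 41.6 ± 17.6 CPM (SD, n = 6) in KO AngII libraries, with a log2 change of -1.29 ± 0.42 (SE, edgeR adjusted p = 0.388). The spread in KO control libraries exceeds the difference between these means.

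**Figure D4:**
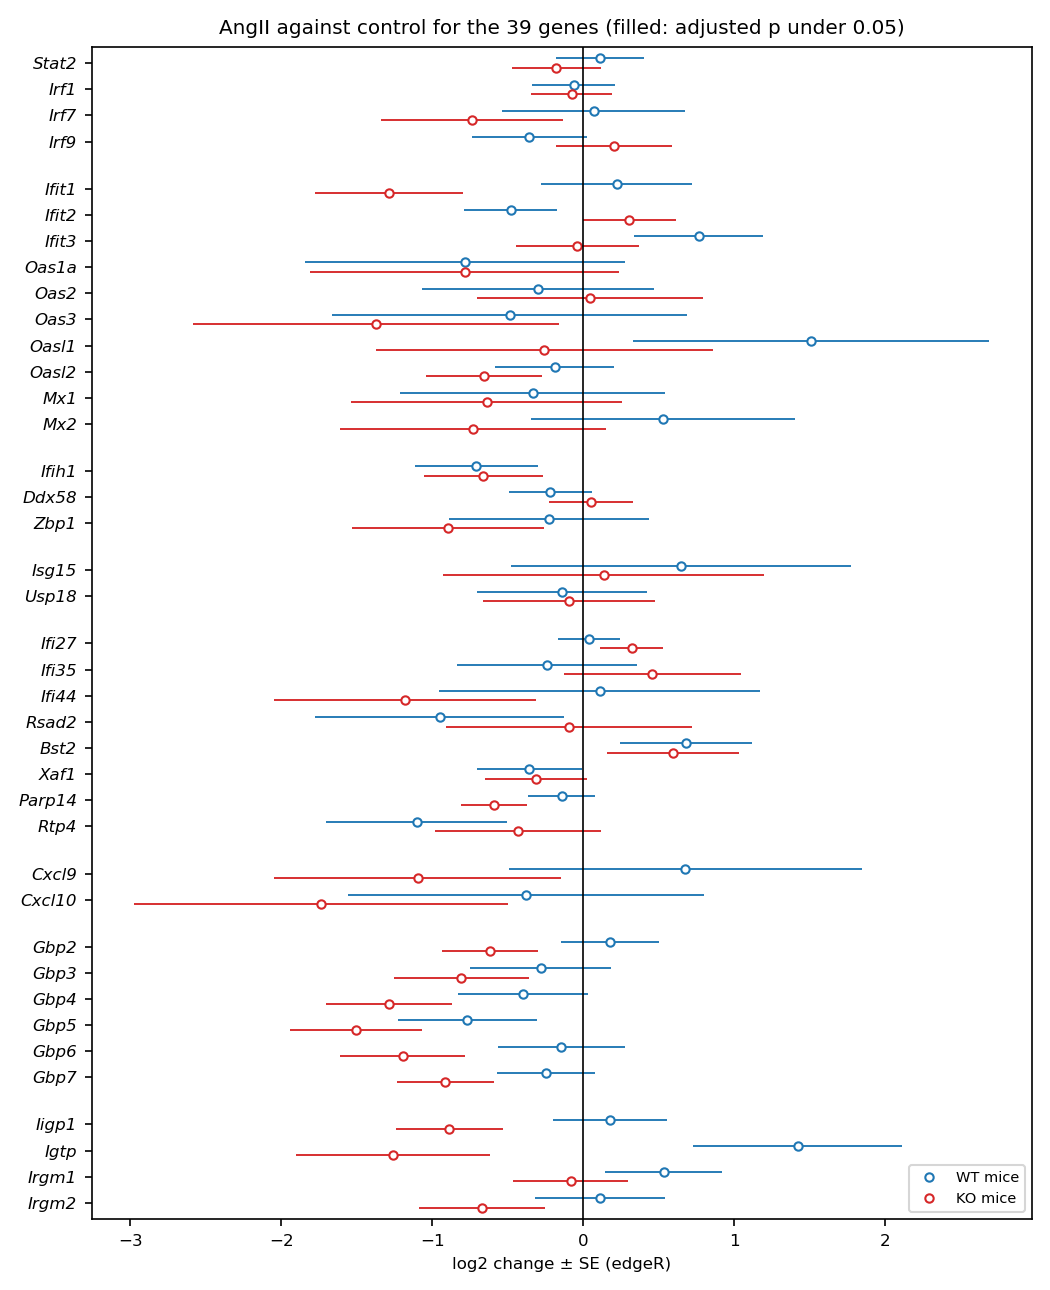
AngII against control for each of the 39 genes, as log2 change with its standard error, in WT mice (blue) and KO mice (red), ordered by role. No gene passed an adjusted p of 0.05, so no point is filled. All 10 GTPases, at the bottom, lie left of 0 in KO mice, and 5 of them do in WT mice.

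The interaction, the KO effect under AngII minus that in control mice, passed for no gene by edgeR (0.00%), and for no member by DESeq2 or limma-voom. It was below 0 for 28 of 39 members and 47.3% of all genes, with a median of -0.52, for all 10 GTPases, with a median of -0.79, and for 8 of 10 antiviral genes, with a median of -0.64. An unadjusted p under 0.05 was reached by 3 members, Igtp at -2.68 ± 0.94, Ifit1 at -1.51 ± 0.70 and Iigp1 at -1.06 ± 0.52, beside 1.91% of all genes with a lower value. The 15 macrophage markers had a median interaction of -1.31, with an unadjusted p under 0.05 for 7 of them. Their part in the GTPase values was not tested.

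Over all 24 libraries, 8 members rose in KO aorta and none fell, beside 1.12% of all genes that passed with a higher value. They were 5 GTPases, Iigp1 (log2 change 1.66 ± 0.26, edgeR adjusted p = 0.000195), Gbp4 (1.58 ± 0.30, edgeR adjusted p = 0.00268), Gbp5 (1.52 ± 0.32, edgeR adjusted p = 0.0069), Gbp6 (1.42 ± 0.30, edgeR adjusted p = 0.00663) and Gbp3 (1.38 ± 0.33, edgeR adjusted p = 0.0201), together with Ifit3 (1.20 ± 0.30, edgeR adjusted p = 0.0304), Irf1 (0.84 ± 0.19, edgeR adjusted p = 0.0146) and Parp14 (0.63 ± 0.16, edgeR adjusted p = 0.0278). Log2 changes were above 0 for 36 members and 49.1% of all genes. An unadjusted p under 0.05 with a higher value in KO was reached by 24 members, beside 7.74% of all genes. This comparison holds the libraries of the control and AngII comparisons and does not stand apart from them. Iigp1, Gbp4, Gbp5 and Gbp6 passed in all 24 fits that left out 1 library, Ifit3 in 10 and Parp14 in 9. Without KO control females 1 and 3 only Iigp1 passed. No member had all 12 KO libraries above all 12 WT libraries, which 0.0184% of all genes had.

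The wider pathway was read from a list of 82 further genes, of which 61 passed the filter on low counts. Among the rest, Tyk2, Pias1, Mb21d1, Tlr9, Myd88 and Pml on chromosome 9 were listed at 0 in all libraries. So were Tlr7 on chromosome X and Irf8 on chromosome 8. A 0 on these chromosomes says nothing about expression (below). Gbp10 had no row of its own. In control mice 48 of the 61 were above 0 in KO, beside 49.5% of all genes, with a median log2 change of 0.65. None passed by edgeR, and 19 had an unadjusted p under 0.05 with a higher value in KO, beside 5.50% of all genes. All 7 further interferon GTPases that were tested were above 0, from 0.70 to 2.47, and all 6 interferon gamma targets of antigen presentation were, with a median of 1.04. The receptors and Janus kinases, without Tyk2, did not share this: 4 of 8 were above 0, with a median of -0.02. Ifnar1 stood at 29.1 ± 6.55 CPM (SD, n = 6) in WT control and 30.4 ± 8.74 CPM (SD, n = 6) in KO control libraries, and Ifngr1 from 33.1 to 62.3 CPM in WT control and from 20.9 to 78.9 CPM in KO control libraries. Over all libraries 5 genes of the list rose, Tgtp1 (2.05), Tgtp2 (1.81), Trim30a (1.25), Gvin1 (1.00) and Gbp9 (0.98), beside 1.12% of all genes, and in control females Gbp9 (2.24) and Gvin1 (1.98) did, beside 0.509%. Tgtp1 and Tgtp2 are near-identical, so their counts cannot be told apart with certainty.

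Of 10 interferon ligand genes 2 passed the filter on low counts, Ifnz (interferon zeta) and Ifna4, and neither passed the adjusted threshold. Ifnz ran from 0 to 1.47 CPM in WT control and from 0.733 to 10.2 CPM in KO control libraries, with a log2 change of 2.48 ± 1.01 (SE, edgeR adjusted p = 0.388). The groups overlapped through the males, while all 3 KO control females, at 10.2, 3.96 and 7.76 CPM, lay above every WT control library. Over all 24 libraries the change of Ifnz was 2.34 ± 0.71 (SE, edgeR adjusted p = 0.0955). Ifna4 had 0 counts in all 3 WT control females and stood at 3.18, 1.44 and 7.76 CPM in the KO control females, with an unadjusted p under 0.05 there. In control males all KO libraries were at 0 and WT libraries reached 3.06 CPM. There Ifna4 was lower in KO, also with an unadjusted p under 0.05 by edgeR. Ifna4 was thinly counted, with 39 counts over all 24 libraries. In the KO control females 3 counts stand for about 1.07 to 1.87 CPM, reckoned on library totals before the filter on low counts. Those totals are slightly larger than the ones behind the levels. Interferon gamma and interferon beta were at the edge of detection. Interferon gamma (Ifng) had 0 counts in all 6 WT control libraries, where 3 counts would stand for about 0.650 to 1.09 CPM on the unfiltered totals. It had 14 counts in all over 4 of the 6 KO control libraries. KO control female 1 held 3.82 CPM, above the other libraries with counts, at 0.554, 1.14 and 0.486 CPM. Ifng had 0 counts in all KO AngII libraries and 2 counts in 1 WT AngII library. Interferon beta (Ifnb1) was listed at 0 in 5 of 6 libraries of WT control and of KO control mice. Neither gene passed the filter, so no test of them is given.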

How the data were processed

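Total RNA of mouse aorta was depleted of rRNA before library preparation, per the labels' protocols. The authors deposited 1 table of raw read counts per gene for 24 libraries. The build mm10 and, without their order or role, featureCounts 1.4.6, Bowtie2 2.2.5, cutadapt 1.8.1 and TopHat2 2.0.14 stand in the submitters' processing notes. Strand setting and annotation are not given in the sources used here. Genes on chromosomes 9, X, Y and MT were all listed at 0, as were 630 of 1749 genes on chromosome 8, Cdh5 among them, so a 0 there says nothing.

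Counts were fitted in R 4.3.3 with edgeR 4.0.16 (TMM, filterByExpr with a minimum count of 10, quasi-likelihood F-test, two-sided), in 1 model of 8 group means, with Benjamini-Hochberg adjustment over 16316 genes and a threshold of 0.05. Main fits had no replicate block. DESeq2 1.42.0, limma 3.58.1 (voom with quality weights) and other settings served as alternatives. The model was tested on simulated counts for KO against WT in control mice (15489 genes): it called 18 of 100 genes changed 2-fold, 64 of 100 changed 4-fold and 2 of 15292 unchanged ones.

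The members, the further pathway list and the markers were chosen with earlier results of these data known. Any member could be named. Values per library were given for members that passed in any comparison and, in each role group, for the member with the smallest p in control mice and the one with the highest level per kb of exon (GENCODE M21).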

Additional observations from a re-analysis of the deposited data

Results flagged for a closer look

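For 14 members, the levels in each of the 4 groups of 6 libraries were searched for 1 library far from the rest (its gap to the nearest over the range of log2(CPM + 1) above 0.625). Of 56 such groups 6 held one, where chance gives about 1 in 20. Ddx58 was low in KO control female 1, at 5.09 CPM against 20.1 to 39.9 CPM in the others. Zbp1 was low in KO AngII female 3, at 0.874 CPM against 3.06 to 5.17 CPM. Ifi27 was low in WT AngII male 3, at 56.9 CPM against 86.6 to 106 CPM. Gbp2 was high in WT control female 2, at 28.3 CPM against 16.1 to 18.7 CPM. Gbp3 was high in WT AngII female 2, at 20.6 CPM against 4.66 to 7.76 CPM. The Gbp5 row was low in KO AngII female 1, at 6.34 CPM against 13.3 to 20.3 CPM.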

How the results depend on the processing

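Members that passed numbered 3 in KO against WT control mice, and 11 with DESeq2, 12 with no filter on low counts, 1 with at least 50 counts in 3 libraries (fewer genes tested), 0 with limma-voom, 1 with the replicate block and 0 without KO control females 1 and 3. Leaving out 1 library gave 1 to 11. Under AngII the count was 0, and 3 with no filter. For AngII in KO mice it was 0, and 3 with no filter and 0 to 1 with 1 library left out. Over all mice it was 8, and 16 with DESeq2, 17 with no filter, 1 without KO control females 1 and 3, and 5 to 14 with 1 library left out. In control females it was 3, and 11 with DESeq2, 11 with no filter, 1 with at least 50 counts in 3 libraries, 1 with protein-coding genes only (an alternative added after seeing the data), 0 without replicates 1 and 3, and 0 to 11 with 1 library left out. There the change of the Gbp6 row was -0.0295 without replicates 1 and 3, which leaves 1 KO control female, assumed to vary like the other groups. In control males it was 0, and 1 with DESeq2, 2 with no filter, 1 without KO control females 1 and 3, and 0 to 1 with 1 library left out. For the sex difference it was 0, and 1 with no filter and 0 to 1 with 1 library left out. For AngII in WT mice and the interaction it was 0 in every setting run. The number of all genes that passed moved as well. With 1 library left out it ran from 13 to 399 in control mice, 171 to 624 over all mice and 14 to 1185 in control females. With every library in it was 36, 219 and 133 in the same order. For the other settings the shares over all genes are not given here. Unless a construction is named, the cause was not tested. The main fits did not pair same-numbered libraries of different groups. Their residuals correlated at -0.10 to 0.13, with a mean of 0.0041, against a mean of -0.0018 for libraries of different numbers. With 3 numbers to choose from, 10 of 24 libraries correlated best with their own number. Whether same-numbered libraries shared a batch was not tested. In control mice the GTPases lay above 0 in 10 of 10 genes in every setting run. Depth limits the thin members, since the 39 genes shared 1075 to 5550 counts per library.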
